A study of Homo sapiens with 18 samples.

Results

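The 8 genes CFTR, SLC12A2, KCNQ1, KCNE3, GUCY2C, SCNN1A, ATP1B1 and AQP3 encode channels, transporters and a receptor through which the intestinal epithelium moves salt and water. They were taken from 19774 genes measured on microarrays in 18 cell lines labelled as colorectal cancer. Each gene was read from a probe set annotated to that gene alone, and where it had several, from the one with the highest mean over the lines. All 8 were measured. The lines are laboratory cultures with 1 array each, from a series on molecular subtypes of colorectal cancer in laboratory models, and the labels used here give no subtype.

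The labels give 1 grouping, the culture medium. DMEM/F-12 was used for 10 lines: CAR1, CL40, HT55, HUTU80, LS180, OUMS23, RKO, SW1463, SW48 and SW948. RPMI-1640 with added glucose and sodium pyruvate was used for the other 8: COLO320HSR, HCT116, KM12, LS513, MDST8, NCIH716, RCM1 and SNUC1. Serum, glutamine, HEPES, penicillin and streptomycin were common to both media, and no line carries a treatment or an engineered change in the labels. HUTU80, labelled like the others, is known as a duodenal line, and NCIH716 and COLO320HSR are known for neuroendocrine features. A level below is a log2 intensity of 1 array, so 1 unit is a 2-fold difference. No line was measured again, so the difference of a gene between single lines has no replicate error. The SD of the difference between a gene's brightest pair of probe sets is given in its place. It includes any difference in scale between the pair, so it can be wide where both rank the lines alike. In RNA from a whole culture, fewer expressing cells and less RNA per cell cannot be told apart.

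In the intestinal crypt, chloride enters the cell across the basolateral membrane through the cotransporter NKCC1 (SLC12A2), driven by the sodium gradient that the sodium pump sets up. It leaves through the apical channel CFTR, while potassium is recycled through a basolateral channel made of KCNQ1 and its subunit KCNE3, and water and sodium follow. Guanylin peptides, or the heat-stable toxin of enterotoxigenic bacteria, bind the receptor GUCY2C and open CFTR through cyclic GMP; the sodium channel ENaC, whose pore includes SCNN1A, works in the opposite direction and absorbs salt in the distal colon.

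Levels were read against a background of 4.54, the 95th percentile of the highest values reached by 68 probe sets of 44 genes restricted to other tissues. Of 13465 genes above it in at least 1 line, 36.4 percent ranged over 3 log2 units or more across the lines, and 8 of the 8 ion transport genes did. Above background in every line were 53.5 percent of the genes and 3 of the 8, SLC12A2, ATP1B1 and AQP3. The median range of the 8 was 6.07 against 2.36 over all genes, and their median SD across lines was 2.23 against 0.62. The 8 were chosen with earlier results of these data known, so these contrasts describe the chosen genes and test nothing. Array medians lay between 3.65 and 3.69, and between 9716 and 10262 genes per line exceeded background.

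**Figure D1:**
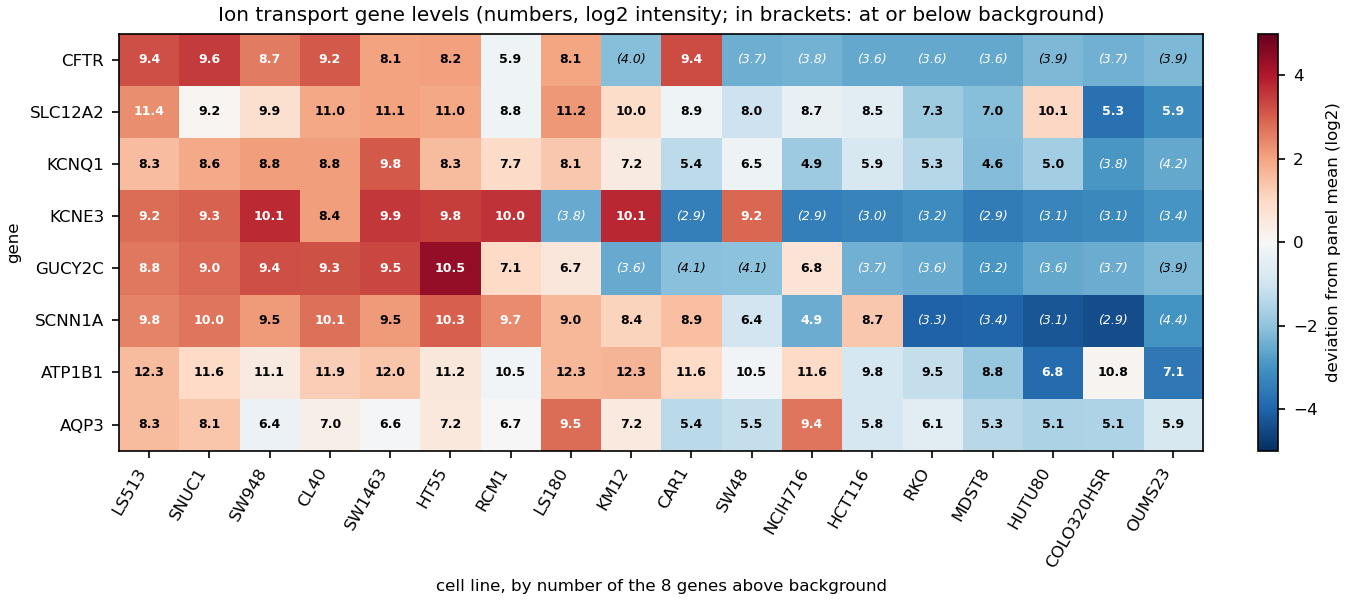
Log2 intensity of the 8 genes (rows) in each of 18 lines (columns, ordered by how many of the 8 exceeded background), with values in brackets at or below the background of 4.54; colour is the deviation from the gene's mean over the lines in log2 units, so colours compare lines and not genes. In the 7 lines from LS513 to RCM1 all 8 genes exceeded background, and in COLO320HSR and OUMS23 only 3 did.

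The promoters are printed for a pair of genes that were at background in 9 of 18 lines (CFTR and KCNE3) and a pair above it in every line (SLC12A2 and ATP1B1). Each runs from 250 bases before to 50 bases after the annotated start, 5′ to 3′ on the strand of the gene, from RefSeq on GRCh38.p14. CFTR lies at chr7:117479775-117480074 on the plus strand, KCNE3 at chr11:74467500-74467799 on the minus strand, SLC12A2 at chr5:128083516-128083815 on the plus strand and ATP1B1 at chr1:169106440-169106739 on the plus strand. Capitals mark GGGCGG, the GC box bound by SP and KLF factors, on either strand, where neighbouring matches may abut.
CFTR: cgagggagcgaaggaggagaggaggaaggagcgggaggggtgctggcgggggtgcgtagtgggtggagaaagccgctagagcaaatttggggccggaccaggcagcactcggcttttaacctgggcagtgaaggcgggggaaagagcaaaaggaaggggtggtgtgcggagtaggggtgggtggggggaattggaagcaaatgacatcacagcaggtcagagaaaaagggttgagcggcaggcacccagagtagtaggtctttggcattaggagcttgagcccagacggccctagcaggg
KCNE3: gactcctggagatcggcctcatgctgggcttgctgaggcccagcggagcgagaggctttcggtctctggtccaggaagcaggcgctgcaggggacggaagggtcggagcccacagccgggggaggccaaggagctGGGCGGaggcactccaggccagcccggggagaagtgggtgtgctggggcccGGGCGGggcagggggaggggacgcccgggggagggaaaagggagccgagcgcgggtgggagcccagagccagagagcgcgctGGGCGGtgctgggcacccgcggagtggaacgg
SLC12A2: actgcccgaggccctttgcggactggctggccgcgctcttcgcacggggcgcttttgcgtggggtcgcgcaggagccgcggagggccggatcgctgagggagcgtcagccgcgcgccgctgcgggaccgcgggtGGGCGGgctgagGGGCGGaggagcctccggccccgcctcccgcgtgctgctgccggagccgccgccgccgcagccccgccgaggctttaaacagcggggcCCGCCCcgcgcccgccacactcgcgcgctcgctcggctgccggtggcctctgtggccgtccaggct
ATP1B1: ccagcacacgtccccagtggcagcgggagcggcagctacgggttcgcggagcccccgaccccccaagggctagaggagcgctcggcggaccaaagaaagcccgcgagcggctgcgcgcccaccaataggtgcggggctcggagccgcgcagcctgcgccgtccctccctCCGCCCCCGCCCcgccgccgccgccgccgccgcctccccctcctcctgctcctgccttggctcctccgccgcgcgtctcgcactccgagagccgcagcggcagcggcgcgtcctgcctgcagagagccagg

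No match to any of the motifs named here stood in the CFTR window, which held 12 CpG dinucleotides, with 46.9 percent of 35116 promoters of the same length holding fewer. The KCNE3 window held 23 CpG (64.2 percent held fewer) and 3 GC boxes. SLC12A2 had 47 CpG (97.6 percent held fewer) and 3 GC boxes, and ATP1B1 had 41 CpG (93.3 percent held fewer) and 2. AQP3, the other gene above background in every line, had 31 CpG (79.3 percent held fewer) in its window at chr9:33447544-33447843 on the minus strand. GGGCGG was thus found in 4 of 5 windows, and in 45.0 percent of all promoters. The CDX motif TTTATNG matched once, in AQP3, as CTATAAA starting at position -33 from the start, where it overlaps a TATA-box-like stretch, and 9.73 percent of all promoters held it. None of the 5 held CAAAGTCCA (HNF4, in 0.384 percent of promoters), TGTTTAC (FOXA, 3.42 percent), CACCTG (an E-box of ZEB and SNAI factors, 20.6 percent) or TGANTCA (AP-1, 7.71 percent). Both strands were searched, and with 5 windows these are descriptions. KCNQ1, GUCY2C and SCNN1A are named only.

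CFTR, the apical chloride and bicarbonate channel, was either well above background or at it. It exceeded background in 9 of 18 lines, at 9.62 in SNUC1, 9.40 in CAR1, 9.35 in LS513, 9.20 in CL40, 8.71 in SW948, 8.19 in HT55, 8.13 in SW1463, 8.12 in LS180 and 5.93 in RCM1. The other 9 lines lay between 3.57 in RKO and 3.99 in KM12. RCM1 stood alone between these sets, 2.19 below the nearest line above it. The highest line was 33.8-fold over background on the intensity scale, and the median over all lines was 4.96. Among the 9 lines with signal, 7 of 8 neighbouring pairs in the order of levels lay closer than 0.73. That is the SD between the brightest pair of CFTR probe sets, so by this measure the order of most neighbouring lines within the set is not resolved. A pair of other CFTR probe sets followed the one read (r = 0.98 and 0.93 across lines), while the remaining 3 were at background in every line.

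SLC12A2, the basolateral cotransporter that loads the cell with chloride, exceeded background in 18 of 18 lines and still ranged 67.5-fold. It was lowest in COLO320HSR (5.32) and OUMS23 (5.88), had a median of 9.01, and was highest in LS513 (11.40), LS180 (11.23) and SW1463 (11.09), with HT55 and CL40 (10.99) next. HUTU80, with CFTR at 3.90, had SLC12A2 at 10.11, and KM12, with CFTR at 3.99, had it at 9.98. High levels of the chloride loader were therefore not limited to lines with the apical channel. Both SLC12A2 probe sets gave the same picture (r = 0.98; SD of the difference 0.48), and 12 of 17 neighbouring pairs in the order lay closer than that SD.

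ATP1B1, the beta-1 subunit that carries the sodium pump to the membrane, was above background in 18 of 18 lines. Its values ran from 6.80 in HUTU80 and 7.09 in OUMS23, through 8.77 in MDST8, 9.48 in RKO and 9.80 in HCT116, to a median of 11.17 and a maximum of 12.35 in KM12. The lowest and highest lines differed 46.8-fold, and the SD between its probe sets was 0.17. HUTU80 and OUMS23 stood 1.68 or more below every other line. COLO320HSR, the lowest line for SLC12A2 and at background for KCNQ1 and SCNN1A, had ATP1B1 at 10.79, close to the panel mean of 10.66.

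KCNQ1, the pore subunit of the basolateral potassium channel, showed a graded pattern. It was highest in SW1463 (9.80), with SW948 at 8.83, CL40 at 8.82 and SNUC1 at 8.63, had a median of 6.85, and was lowest in COLO320HSR (3.82) and OUMS23 (4.20), the only lines below background. The maximum was 38.1-fold over background. MDST8 exceeded background by little (4.58). A second probe set followed it across lines (r = 0.90) but exceeded background in 9 lines, and the remaining probe set was at background throughout. The SD between the brightest pair was 0.93, wider than the gap of 14 of 15 neighbouring pairs.

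KCNE3, the subunit that holds the KCNQ1 channel open, split the panel into 9 lines and 9 lines with nothing between them. It lay between 8.44 and 10.14 in KM12 (10.14), SW948 (10.08), RCM1 (9.99), SW1463 (9.88), HT55 (9.82), SNUC1 (9.32), SW48 (9.22), LS513 (9.16) and CL40 (8.44). The other 9 lines lay between 2.87 in MDST8 and 3.83 in LS180, which left a gap of 4.60. Every line with KCNE3 also had KCNQ1 above background, whereas 7 lines had KCNQ1 without it: HCT116, RKO, LS180, MDST8, NCIH716, CAR1 and HUTU80. LS180 was the clearest of these, with KCNQ1 at 8.10 and KCNE3 at 3.83. All 3 KCNE3 probe sets exceeded background in 9 lines (r = 0.98 for both others). The SD between the brightest pair, 1.43, was wider than all 8 gaps within the upper set.

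GUCY2C, the receptor for guanylin and for the heat-stable toxin, also divided the panel 9 to 9. HT55 was highest at 10.55, followed by SW1463 at 9.49, SW948 at 9.39, CL40 at 9.32, SNUC1 at 8.97 and LS513 at 8.78. RCM1 (7.13), NCIH716 (6.83) and LS180 (6.72) formed a dimmer set, and the remaining 9 lines lay between 3.24 in MDST8 and 4.10 in SW48. The maximum was 64.1-fold over background. GUCY2C had a single probe set, so no check between probe sets was possible.

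The ligands of GUCY2C were measured too. GUCA2A (guanylin) exceeded background in 8 lines, all of which also had GUCY2C above it: HT55 (10.25), CL40 (8.85), NCIH716 (8.60), LS513 (8.26), SW1463 (7.49), SW948 (5.40), RCM1 (4.79) and SNUC1 (4.72). The last of these lie near background. LS180 was the line with the receptor and no guanylin signal. GUCA2B (uroguanylin) reached 11.65 in NCIH716 and was at background in the other 17 lines, of which HT55 was next at 4.14. PRKG2, the kinase that phosphorylates CFTR downstream of cyclic GMP, was at background in every line.

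SCNN1A, the alpha subunit of ENaC, exceeded background in 13 of 18 lines. It was highest in HT55 (10.32), CL40 (10.10) and SNUC1 (10.03), had a median of 8.78, and lay at background in OUMS23 (4.36), MDST8 (3.36), RKO (3.29), HUTU80 (3.08) and COLO320HSR (2.93). NCIH716 at 4.88 and SW48 at 6.39 lay between. HCT116, in which CFTR, KCNE3 and GUCY2C were at background, had SCNN1A at 8.71. The other 2 SCNN1A probe sets were dim, at 4.57 or below in every line, so the levels rest on 1 probe set. The dimmest of the 3 still followed the one read across lines (r = 0.82), with 1 line above background. The second brightest was at background in every line (r = 0.06 with the one read). The SD between this pair, 2.85, therefore mainly repeats the gene's own SD across lines, also 2.85. It gives no check on the order of the lines above background. The partners that complete the channel were scarce: SCNN1G was at background in all lines and SCNN1B exceeded it in CAR1 alone (5.35). PRSS8, the protease that activates ENaC, exceeded background in 12 lines and was highest in OUMS23 (9.34), where SCNN1A was at background.

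AQP3, the aquaglyceroporin of the basolateral membrane, ranged over 4.38 (20.9-fold), or over 6.61 when read from its probe set of largest SD. It was highest in LS180 (9.47) and NCIH716 (9.36), then LS513 (8.26) and SNUC1 (8.08), with a median of 6.52 and a minimum of 5.09 in HUTU80. COLO320HSR (5.13), MDST8 (5.28), CAR1 (5.36) and SW48 (5.50) lay near the minimum. A second probe set tracked it (r = 0.95) but exceeded background in 12 lines rather than 18. The SD between them was 1.05, wider than the gaps of 16 of 17 neighbouring pairs. By this measure the order of most neighbouring lines is not resolved.

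Taken by line, 7 of 18 carried all 8 genes above background: RCM1, SNUC1, HT55, SW948, SW1463, LS513 and CL40. In LS513 all 8 lay 1 log2 unit or more above their panel means, with a median deviation of 2.40, and in SNUC1, SW948, CL40 and SW1463 the median deviation was between 2.07 and 2.28. RCM1, with the same 8 genes present, had a median deviation of 0.48. At the other end stood OUMS23 (median deviation -2.75), COLO320HSR (-2.71), HUTU80 (-2.39), MDST8 (-2.36) and RKO (-2.15). The median deviation over all genes lay between -0.12 and 0.02 in every line. In MDST8 all 8 genes lay 1 unit or more below their means. Over all genes, 9.54 percent lay that far above their means in LS513 and 11.2 percent that far below in MDST8.

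The 3 genes that split the panel did not split it the same way. CFTR and GUCY2C were both present in 8 lines and both absent in 8, with CAR1 holding CFTR alone (9.40 against GUCY2C at 4.08) and NCIH716 holding GUCY2C alone (6.83 against CFTR at 3.78). CFTR and KCNE3 were both present in 7 lines and both absent in 7. LS180 and CAR1 had CFTR without KCNE3, and KM12 and SW48 had KCNE3 at 10.14 and 9.22 with CFTR at 3.99 and 3.71. KCNE3 and GUCY2C were both present in 7 lines and both absent in 7, and differed in KM12, SW48, LS180 and NCIH716. All lines with CFTR, with KCNE3 or with GUCY2C had SCNN1A above background.

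**Figure D2:**
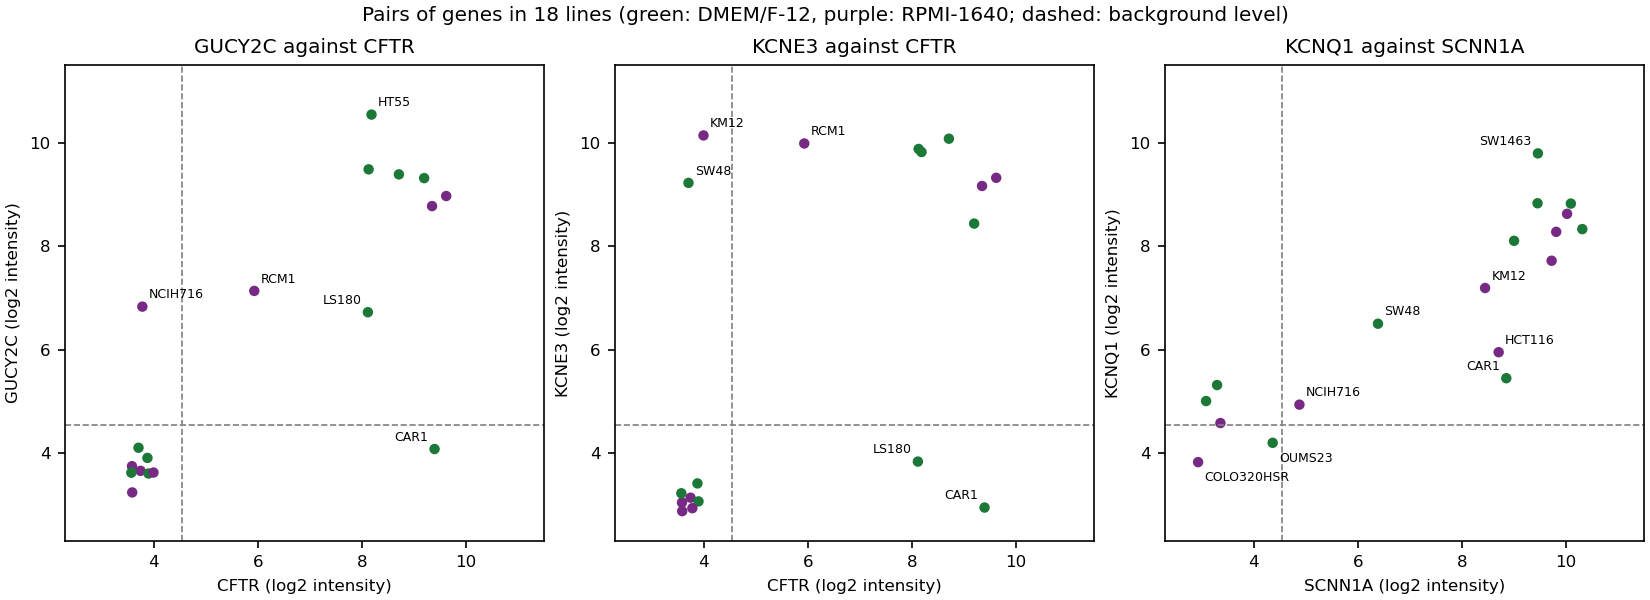
Log2 intensity of GUCY2C against CFTR, of KCNE3 against CFTR and of KCNQ1 against SCNN1A, with 1 point per line (green DMEM/F-12, purple RPMI-1640) and dashed lines at the background of 4.54. The points of the left and middle panels lie mostly in opposite corners, apart from CAR1 and NCIH716 on the left and CAR1, LS180, KM12 and SW48 in the middle, while the right panel forms a band (r = 0.87).

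For the 5 genes without such a split, levels were positively related across lines. Of their 10 pairs, 8 had a Pearson r of 0.5 or more, and the median r was 0.63. The unclustered genes with a range of 2 log2 units or more gave 29188620 pairs. Of these, 4.80 percent had an r of 0.5 or more, and the median r was -0.005. KCNQ1 and SCNN1A were closest (r = 0.87, Spearman's rho 0.86; r = 0.83 within the DMEM/F-12 lines and 0.95 within the RPMI-1640 lines). SLC12A2 with KCNQ1 followed (r = 0.81, rho 0.76; 0.80 and 0.83 within the media), and then SLC12A2 with SCNN1A (r = 0.73, rho 0.68; 0.69 and 0.81). The lowest were SCNN1A with AQP3 (r = 0.45, rho 0.64; 0.52 and 0.41), KCNQ1 with AQP3 (r = 0.48, rho 0.54; 0.57 and 0.49) and SLC12A2 with ATP1B1 (r = 0.54, rho 0.68; 0.61 and 0.64). Without the 2 lines farthest from the median of the first gene, r was 0.87, 0.73 and 0.63 for the highest 3, and 0.29, 0.47 and 0.50 for the lowest 3. The points of each r are 18 lines on 18 arrays normalized together, and no p is given. SCNN1A exceeded background in 13 of the 18 lines and KCNQ1 in 16. SCNN1A, with a largest gap of 2.06 in a range of 7.39, fell short of the rule for a split. The r of these genes thus take in the difference between lines with and without signal. No r over the lines with signal alone was computed for them.

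Within the lines that had a split gene, the relations were of both signs. Over the 8 lines of the upper CFTR set, r of CFTR was -0.57 with SLC12A2, -0.39 with KCNQ1, -0.28 with GUCY2C and 0.12 with SCNN1A. KCNE3, over the 9 lines that had it, lay between -0.34 and -0.04 with each of the other 7 genes. GUCY2C, over its own 9 lines, was positively related to KCNE3 (0.73), KCNQ1 (0.65), CFTR (0.64) and SCNN1A (0.60) and negatively to AQP3 (-0.63). Some of these sets span the split of the other gene. Among the lines with GUCY2C, KCNE3 was at background in LS180 and NCIH716, and CFTR in NCIH716. Spearman's rho there was 0.58 for KCNE3 and 0.40 for CFTR. In the CFTR set GUCY2C was at background in CAR1. In the KCNE3 set both CFTR and GUCY2C were at background in KM12 and SW48. The choice of lines mattered here, since GUCY2C and KCNE3 gave -0.16 over the lines with KCNE3. These sets of 8 or 9 lines are descriptions.

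Among 8178 genes with a range of 2 or more, the 3 whose levels followed each of the 8 most closely were ranked by Pearson r over 18 lines, and r is printed where neither gene falls into clusters. KCNQ1 was closest to MST1R (0.95), GPR35 (0.94) and the intestinal transcription factor CDX1, itself split. SCNN1A was closest to GDA (0.98), MISP (0.97) and TMC4 (0.94). ATP1B1 went with TRIM2, itself split, ARFGEF3 (0.89) and JPH1 (0.89), and AQP3 with ZG16B (0.85), RPH3AL (0.84) and TIMP4 (0.83). SLC12A2 had 3 genes that respond to signalling, ZFP36 (0.84), HES1 (0.84) and IER2 (0.82). Without the 2 farthest lines r fell to 0.67 for IER2, to 0.69 for JPH1 and RPH3AL and to 0.64 for ZG16B.

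For the split genes the ranking mostly follows the split, so levels on its sides are given instead. Genes ranked first by r with a split gene can separate its sets through that choice alone. Separation and overlap below are therefore descriptions, and no share over all genes is given beside them. GUCY2C lay nearest USH1C, a scaffold of the brush border, which was between 8.31 and 9.70 in the 9 lines with GUCY2C and at 5.79 or below in the others. Within those 9 lines r with GUCY2C was 0.94 for USH1C, 0.88 for MTIF3 and 0.58 for the drug-metabolising CYP3A5, and none of these 3 overlapped between the sets. KCNE3 was nearest BCL2L15, between 6.12 and 10.02 in the 9 lines with KCNE3 and at 5.52 or below elsewhere, then GPR35 and ALDH3A1, whose levels overlapped between the sets. Within the 9 lines their r with KCNE3 lay between -0.40 and -0.10. CFTR was nearest PDZK1IP1, between 4.44 and 8.91 in the 8 lines of the upper CFTR set and at 4.27 or below elsewhere, RCM1 included. PDZK1IP1 exceeded background in 7 lines, so its sets meet below background, where levels have no order. TNFSF15 and CEACAM1 came next, and their levels overlapped between the sets. Within the 8 lines r with CFTR lay between 0.51 and 0.59 for these 3 genes.

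Of 93 other genes in 9 lists of ion transport and its control, 82 were measured. Among all 19774 genes, 13465 exceeded background in at least 1 line, and 36.4 percent of the 13465 ranged over 3 units or more. The counts per list are descriptions to be read beside these. Overlaps of a list gene with CFTR or with others of the 8 genes are descriptions too, and no share over all genes is given for them. The potassium list gave the nearest relatives of KCNE3: KCNE1, KCNE2 and KCNE4 were at background in every line, so KCNE3 was the one KCNE subunit measured here with signal. KCNN4, the calcium-activated channel that also drives chloride secretion, exceeded background in 14 lines and was highest in KM12 (9.46). KCNK1 exceeded it in 14 lines (up to 10.96 in KM12) and KCNMA1 in 4, MDST8 (9.83), NCIH716 (9.15), OUMS23 (8.81) and CAR1, of which only CAR1 had CFTR. Of 11 genes in this list 8 exceeded background in some line and 7 ranged over 3 units or more.

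In the chloride and bicarbonate list 14 of 18 measured genes exceeded background in some line and 9 were variable. SLC26A3, the chloride-bicarbonate exchanger of the surface colonocyte, exceeded it in 4 lines, HT55 (12.73), SNUC1 (10.25), CL40 (8.48) and SW1463 (6.60), each of which had all 8 ion transport genes. CA12, a carbonic anhydrase, exceeded it in 11 lines (up to 10.56 in CL40), and BEST4, CLCA4, CA1 and SLC26A9 did not do so in any. Of 11 sodium absorption genes measured 9 exceeded background in some line and 7 were variable; SLC5A1, the sodium-glucose cotransporter, did so in 8 lines (9.20 in SW1463), and SLC9A3, the apical sodium-proton exchanger, in none.

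Of 5 measured sodium pump genes 3 had signal. ATP1B3, the other beta subunit with signal, lay between 10.36 and 11.96 in all lines, so that HUTU80 and OUMS23, lowest for ATP1B1, had ATP1B3 at 11.48 and 11.72. FXYD3, a pump regulator, exceeded background in 12 lines (11.44 in HT55, 2.60 in HUTU80) and FXYD5 in 16 (11.20 in CAR1). The pump's alpha subunits are not analysed here. Of 7 other water channels 3 exceeded background in some line: AQP8, a colonocyte channel, in HT55 alone (7.31), AQP1 in 2 lines and AQP11 in 10 (up to 6.36 in MDST8).

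All 10 genes of the secretagogue and cyclic AMP list exceeded background in some line, 4 in every line, and 8 were variable. ADORA2B, the adenosine receptor, did so in 16 lines (10.43 in SW948). PRKAR2B, a regulatory subunit of protein kinase A, exceeded background in 9 lines (8.32 in COLO320HSR). Of these, 8 lacked CFTR signal, and CAR1 (5.83) was the exception. CFTR was at background in 9 of 18 lines, and no share over all genes is given beside this count, so it is a description. Of 7 kinases and partners that regulate SLC12A2, 6 had signal and 3 were variable. STK39 (SPAK), which phosphorylates SLC12A2, exceeded background in 17 lines (10.44 in HCT116) and was at background in OUMS23 (3.24), and WNK4 did so in 6 (6.77 in SW948). All 7 intestinal transcription factors measured were variable. CDX1 exceeded background in 11 lines (9.25 in HT55) and EHF in 13 (11.53 in CL40, 3.18 in RKO).

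**Figure D3:**
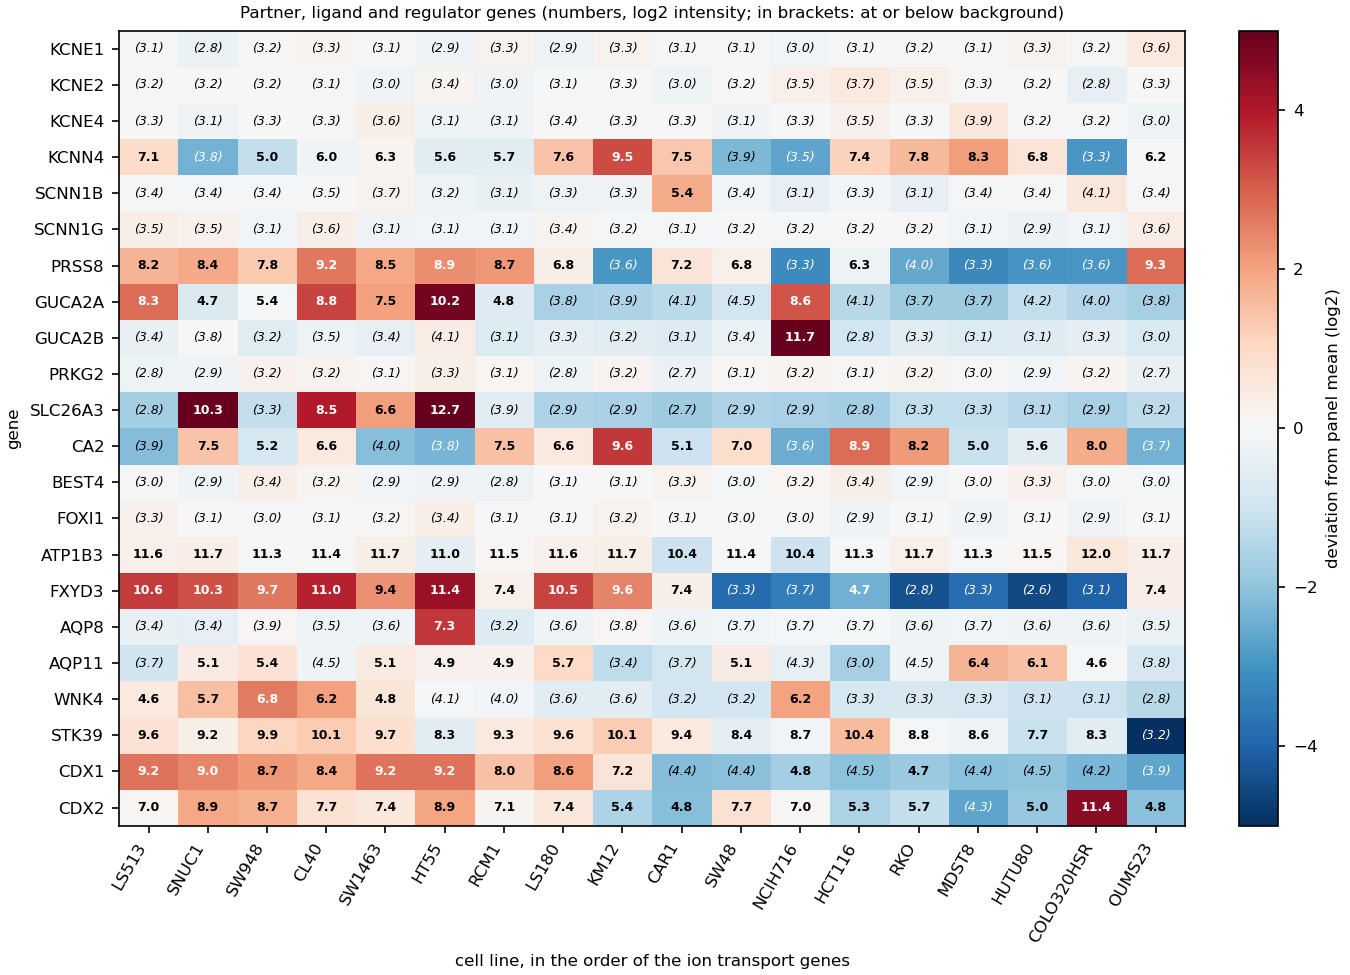
Log2 intensity of partner, ligand, regulator and marker genes in each of 18 lines (in the order of the plot of the 8 genes), with values in brackets at or below background; colour is the deviation from each gene's mean in log2 units, cut at 5. KCNE1, KCNE2, KCNE4, SCNN1G, PRKG2, BEST4 and FOXI1 were at background in all lines, and GUCA2B stood out in NCIH716.

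Many cell identity markers also varied across the lines, though not always along with the 8 genes, and their part in these results was not tested. All 10 epithelial markers exceeded background in some line and all were variable. The 7 lines with all 8 ion transport genes, and also LS180, CAR1, KM12, HCT116 and OUMS23, had 10 of 10 epithelial markers above background. SW48 had 9, NCIH716 6, RKO and HUTU80 3, MDST8 1 and COLO320HSR 0. The last 4 were also among the 5 lines without SCNN1A signal; the fifth was OUMS23, with the adhesion protein CDH1 at 11.57. Mesenchymal markers above background numbered 7 of 10 in HUTU80 and 6 in MDST8, and between 0 and 2 in the 7 lines with all 8 genes, as also in RKO, OUMS23, KM12, LS180 and SW48. Goblet markers were most numerous in NCIH716 (8 of 9) and LS180 (7), and enteroendocrine markers in NCIH716 (7 of 7). FABP1, a fatty acid binding protein of absorptive enterocytes, exceeded background in exactly those 7 lines, between 7.19 in RCM1 and 13.02 in SNUC1, with LS180 just under it at 4.50. It was picked after its values were seen, and other colonocyte markers differed: KRT20 exceeded background in 10 lines, and CA2 was highest in KM12 (9.65), HCT116 (8.89) and RKO (8.23) and at background in HT55, SW1463 and LS513. Absorptive colonocyte markers numbered between 3 and 6 of 11 there and between 0 and 3 elsewhere, NCIH716 and LS513 both having 3. BEST4-positive enterocytes and ionocytes are other cell types known for high CFTR. None of the 4 markers measured of the first exceeded background in any line, and of 5 ionocyte markers FOXI1, ASCL3, ATP6V1B1 and BSND did not, while ATP6V0D2 did in 2 lines without CFTR signal. Endothelial markers were at background apart from CDH5 in OUMS23, and of 8 leukocyte markers 3 had signal in some line. PTPRC did in SW48 (6.68) and COLO320HSR (6.40) and CD68 in RKO (7.03). LYZ (lysozyme), which Paneth cells also make, did in 10 lines, the 7 with all 8 genes and KM12, LS180 and NCIH716, and was highest in SW948 (11.51).

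The media comparison asks whether the 8 genes differ between the 8 lines in RPMI-1640 and the 10 in DMEM/F-12. Medium and line cannot be told apart, since no line was grown in both. CFTR had a mean of 5.45 ± 2.61 (SD, n = 8) in RPMI-1640 and 6.68 ± 2.55 (SD, n = 10) in DMEM/F-12, and exceeded background in 3 of 8 lines against 6 of 10. The difference, RPMI-1640 minus DMEM/F-12, was -1.23 (SE 1.14, 95% interval -3.62 to 1.16; limma adjusted p = 0.9991), and the ranges of the groups overlapped. SLC12A2 differed by -0.83 (interval -2.54 to 0.88), KCNQ1 by -0.65 (-2.42 to 1.13), GUCY2C by -0.73 (-3.25 to 1.79), SCNN1A by -0.20 (-2.92 to 2.52) and KCNE3 by -0.07 (-3.24 to 3.10). ATP1B1 (0.56, interval -1.02 to 2.15) and AQP3 (0.51, interval -0.79 to 1.81) lay higher in RPMI-1640. The adjusted p of limma was 0.9991 for all 8. Across the 13465 genes limma called 0 (0 percent) at an adjusted p under 0.05, and 337 (2.50 percent) had an unadjusted p under 0.05, none of the 8 among them. A difference of 2-fold in at least 1 direction lies inside every interval, so one of that size was not detectable for these genes with this panel. None of the pathway genes was called either.

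**Figure D4:**
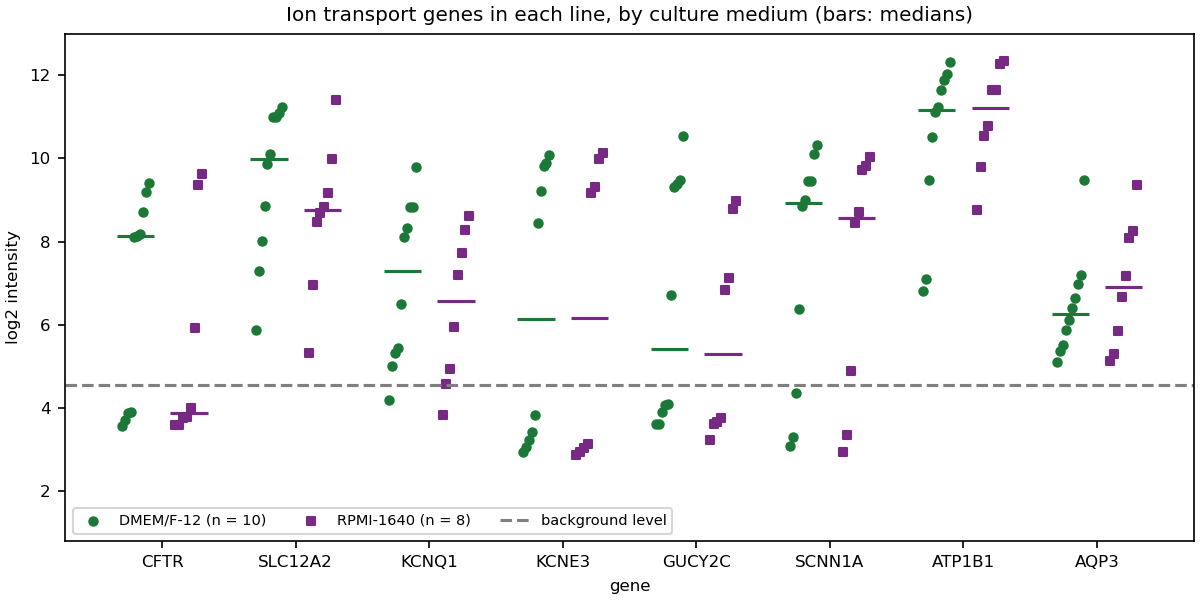
Log2 intensity of the 8 genes, with 1 point per line (green circles, 10 lines in DMEM/F-12; purple squares, 8 lines in RPMI-1640), bars at group medians and a dashed line at the background of 4.54. Points of both media overlap for every gene, and CFTR, KCNE3 and GUCY2C have an empty zone above background in both.

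**Figure D5:**
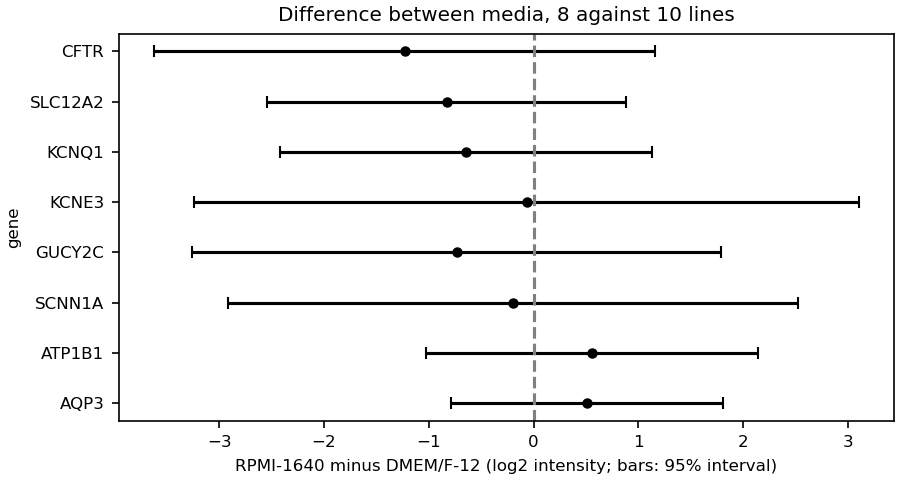
Difference between media for each gene (RPMI-1640 minus DMEM/F-12, log2 units; points are limma estimates over 8 and 10 lines, bars their 95% intervals). Every interval includes 0, and the widest is that of KCNE3 (-3.24 to 3.10).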

How the data were processed

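Biotin-labelled total RNA of 18 cell lines was measured on 1 array each. The authors deposited log2 intensities, for which the submitters' processing notes name RMA and affy (versions: not given in the sources used here). Values between 2.31 and 13.71 were taken as deposited. Of 54613 probe sets, 40914 match 1 gene in the array annotation and were used (40858 with an Entrez ID in the GRCh38.p14 RefSeq table), 864 match several and 12835 none. The brightest such probe set on average stood for its gene.

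The background level, 4.54, is the 95th percentile over 68 probe sets of each one's highest value, from 44 measured of 52 genes listed as restricted to other tissues; MYL7 (11.39 in OUMS23), TNNI3, PRL and SFTPC exceeded it. Genes were clustered if a gap over 0.333 of the range left at least 3 lines on each side, and no pooled r is printed for them, though neighbours were ranked by it. Media were compared with limma 3.58.1 (trend) over 13465 genes, with Benjamini-Hochberg adjustment; scripts were tested on simulated data. Lines are the replicates of a medium, and precision is limited by the number of arrays. The genes named were the 8, the 3 nearest genes of each, and per list the 2 of largest SD; partners, ligands and markers named besides were chosen after their values were seen. The 8 genes and all lists were chosen with earlier results of these data known. Alternatives were other probe set choices, normalizations, background levels, ranges and limma settings, Spearman correlation and leaving out each line.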

Additional observations from a re-analysis of the deposited data

Results flagged for a closer look

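AQP3 in LS180, at 9.47, stood apart from the other 9 lines grown in DMEM/F-12: its gap to the next line was 0.519 of the range of the 10, above the Dixon limit of 0.466. HT55 was next at 7.20. The check covered each of the 8 genes in each medium (16 groups), and chance alone marks about 1 group in 20. In RPMI-1640, NCIH716 was as high (9.36), with LS513 at 8.26 and SNUC1 at 8.08, and did not stand apart.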

How the results depend on the processing

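The 3 genes above background in every line became 0 when background was taken at the 99th percentile (8.36), a level set by the brightest off-tissue probe sets, where CFTR exceeded background in 5 lines, KCNQ1 in 4, GUCY2C in 6 and AQP3 in 2; the count was 2 with the mean of all probe sets or the probe set of largest SD. Between media KCNE3 changed sign with the mean of all probe sets (0.10 in place of -0.07, both far inside the interval); the other 7 differences kept their direction under all 3 alternatives of values. No gene was called between media in any of 26 fits, which included leaving out each line; the lowest adjusted p was 0.464 over all genes and 0.987 over the 8, and 252 to 648 genes had an unadjusted p under 0.05. All 8 genes kept a range of 3 or more under the other settings; averaging all probe sets of a gene, those at background included, left 6 (CFTR 2.66, SCNN1A 2.83), with KCNQ1 above background in 10 lines in place of 16. Of the recomputed correlations, 59 stayed on the same side of 0.5 and 11 crossed it, all of the 11 with AQP3 or ATP1B1. A background of 3.85, chosen after seeing the data, put CFTR and GUCY2C above it in 12 lines each in place of 9, KCNQ1 in 17 and SCNN1A in 14, and left KCNE3 at 9; the added lines lie between 3.85 and 4.54. No paired analysis was possible because each line has 1 array in 1 medium and the labels give no replicate numbers. Levels at or below 4.54 have no order.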

Other observations

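Some genes of the transport lists had signal in few lines or 1, and were picked after their values were seen. KCNJ2, an inward rectifier, reached 11.23 in HUTU80, and KCNQ5, a relative of KCNQ1, 7.86 in MDST8, where KCNQ1 was at 4.58. CLCA1, a secreted goblet cell protein, reached 9.34 in NCIH716 and was at background in the other lines. ANO1, the calcium-activated chloride channel, was highest in LS180 (8.51) and exceeded background in 8 lines. SLC4A4, the basolateral sodium-bicarbonate cotransporter, exceeded background in KM12 alone (5.12), and CA4, an apical carbonic anhydrase, in SW1463 alone (6.10). KCNN4 was at background in SNUC1 (3.83) and SW48 (3.93), both with KCNE3 above 9, and at 8.30 in MDST8, where KCNE3 was at 2.87. Each of these is a single array.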
